A study of Mus musculus with 12 samples.

Results

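The genes described here make, regulate and move cholesterol and fatty acids under the SREBP transcription factors. They were taken as the entries whose gene symbol equals a name on a fixed list of 31, in the tables of both experiments. The list was chosen with earlier results of these data known. All 31 were found among 24058 entries with a unique symbol. By role, 8 encode enzymes of the mevalonate arm, 11 encode enzymes of the arm from squalene to cholesterol, 6 encode fatty acid enzymes, and 6 encode regulators or a sterol carrier. The first 2 classes make up 19 sterol enzymes.

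RNA was sequenced from BV2 cells, an immortalised mouse microglial line, kept in medium with fetal bovine serum and given no further stimulus per the labels. The 4 groups held 3 libraries each: transient shRNA-mediated knockdown of Spi1 and its scrambled control, and transient overexpression from a mouse Spi1 cDNA and its empty control. RNA was extracted from cells collected by flow cytometry in every group. The labels do not say that libraries were grown as separate cultures. The p-values therefore reflect spread among these libraries alone, and that spread may be technical. BV2 is a single line, the change in Spi1 is transient, and the number of hairpin sequences is not given in the sources used here.

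SREBP proteins are made as precursors held in the endoplasmic reticulum by the escort protein SCAP and by INSIG proteins. When membrane sterol falls, SCAP carries the precursor to the Golgi, proteases release the part that acts as a transcription factor, and genes of cholesterol uptake and synthesis (mainly through SREBP-2) and of fatty acid synthesis (mainly through SREBP-1) are transcribed. In the brain cholesterol is made locally, and microglia take up sterol from myelin and cell debris. Spi1 encodes PU.1, an ETS-family transcription factor required for macrophage and microglial development.

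The sequences below show the DNA just before the start of 4 members, the regulators and sterol enzymes with the smallest knockdown p among those with a promoter entry, and the match to the sterol regulatory element consensus in Hmgcs1. They are RefSeq sequences of build GRCm38.p6, read 5′ to 3′ on the strand of the gene, and each promoter covers the 250 bases before the start. For Insig2, which has several starts in RefSeq, the window at its most upstream start is shown. In the 250 bases before its other listed starts none of the motifs marked here was found. Capitals in the promoters mark CCAAT or its reverse complement ATTGG, the box bound by NF-Y, which is known to work beside SREBP at sterol genes, and the E-box CACGTG. Capitals in Hmgcs1 mark the match to TCACNCCAC.
Insig1 chr5:28071162-28071411 + strand: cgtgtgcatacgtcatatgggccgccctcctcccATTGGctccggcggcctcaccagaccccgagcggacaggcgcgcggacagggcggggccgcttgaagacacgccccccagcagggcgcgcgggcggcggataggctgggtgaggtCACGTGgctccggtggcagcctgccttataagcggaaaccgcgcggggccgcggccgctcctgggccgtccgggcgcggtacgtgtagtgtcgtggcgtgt
Insig2 chr1:121332590-121332839 - strand: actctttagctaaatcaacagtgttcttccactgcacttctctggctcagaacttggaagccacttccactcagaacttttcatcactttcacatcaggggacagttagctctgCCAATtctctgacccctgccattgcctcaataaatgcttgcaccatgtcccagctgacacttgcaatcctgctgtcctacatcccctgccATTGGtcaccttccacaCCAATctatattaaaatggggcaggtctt
Idi1 chr13:8885356-8885605 + strand: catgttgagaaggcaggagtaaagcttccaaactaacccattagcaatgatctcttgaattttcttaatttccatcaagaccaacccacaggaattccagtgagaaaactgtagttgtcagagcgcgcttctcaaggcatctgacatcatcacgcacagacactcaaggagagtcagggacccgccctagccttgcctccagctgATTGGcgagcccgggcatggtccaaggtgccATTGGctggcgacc
Cyp51 chr5:4104698-4104947 - strand: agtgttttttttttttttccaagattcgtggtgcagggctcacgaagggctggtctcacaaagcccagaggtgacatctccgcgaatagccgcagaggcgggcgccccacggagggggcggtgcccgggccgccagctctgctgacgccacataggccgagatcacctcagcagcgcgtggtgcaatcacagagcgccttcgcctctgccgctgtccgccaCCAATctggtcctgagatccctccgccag
Hmgcs1 chr13:119690204-119690232 + strand: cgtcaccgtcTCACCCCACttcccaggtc

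Of the 31 genes, 26 had a promoter entry, and motifs were counted on both strands in windows of 250 bases before to 50 after each start. CCAAT stood in a window of 21 of the 26 genes, against 43.2% of tested genes with an entry, and in 37.4% of all windows of that length. CACGTG stood in 5 of the 26, Hsd17b7, Sc5d, Dhcr7, Scap and Insig1, against 12.3% of tested genes. TCACNCCAC stood in 1 of the 26, Hmgcs1, against 1.40% of tested genes. The PU-box core GAGGAAGT, the kind of site PU.1 binds, stood in 3 of the 26, Acat2, Elovl6 and Scap, against 3.99% of tested genes. A match describes these letters in this window only.

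Levels are FPKM, read numbers scaled by gene length and by the library's read total, so levels of different genes can be set side by side. Libraries held 22.3 to 33.1 megareads on genes. The targeted gene Spi1 was at 50.9, 42.4 and 52.3 FPKM in the knockdown libraries, against 159, 169 and 168 FPKM in the scrambled controls, and at 287, 224 and 206 FPKM in overexpression, against 158, 117 and 131 FPKM in the empty controls. The macrophage and microglia markers were listed under 13 symbols, with Emr1 and Adgre1 naming the same gene. Of the symbols 12 were found, Emr1 included, and none of these was at 0. Their summed level was 2514 to 3339 FPKM in knockdown, against 4216 to 5071 FPKM in scrambled controls. It was 4293 to 5838 FPKM in overexpression, against 3875 to 5343 FPKM in empty controls. Lyz2 was the most abundant of the 12, averaging 1197 FPKM in knockdown and 2387 FPKM in scrambled controls. Cd68 averaged 634 and 641 FPKM in these groups, and Emr1 was higher in knockdown, at 102 and 60.3 FPKM. In bulk RNA, fewer cells of a type and less RNA per cell cannot be told apart. Marker sums of neurons, astrocytes, oligodendrocytes, fibroblasts, endothelial cells and lymphocytes were at most 0.569 FPKM in any library.

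In the scrambled controls the members covered a wide range of levels. Acly, ATP-citrate lyase, which makes cytosolic acetyl-CoA for both pathways, was the most abundant, at 67.9 ± 4.37 FPKM. Next came the farnesyl diphosphate synthase gene Fdps at 56.5 ± 4.78 FPKM and the sterol C4-methyl oxidase gene Msmo1 at 49.96 ± 1.05 FPKM (SD, n = 3 each). The libraries of these 3 genes did not overlap from one gene to the next. The regulators Srebf2 and Insig2 stood at 40.3 ± 2.32 and 31.8 ± 0.369 FPKM, above Insig1 at 27.7 ± 2.74 FPKM and Srebf1 at 27.0 ± 2.43 FPKM, and the last 2 do not differ beyond their spread. At the low end were Elovl6 at 3.84 ± 0.284 FPKM and Tm7sf2, a sterol C14-reductase gene, at 2.86 ± 0.349 FPKM. Fads2, which encodes the delta-6 desaturase, is listed at 0 in all 12 libraries and was not tested. The other 30 passed the filter of a mean of 1 FPKM in both experiments. Tm7sf2 rested on 71 to 152 reads per library and every other tested member on at least 276.

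Knockdown was compared with its scrambled control to ask what lower Spi1 does to these genes. Transcripts of 16 of the 30 tested members rose and 1, Insig2, fell, while 13 did not pass (limma on log2(FPKM + 1), Benjamini-Hochberg adjusted p under 0.05 over all genes). Over all 11214 genes tested, 17.4% were called higher and 8.86% lower, 26.3% in all. The median log2 fold change of the 30 was 0.29, against 0.07 over all genes tested. As the list was chosen with earlier results known, these shares describe it and do not test it against all genes. All 17 called members had their 3 knockdown libraries outside the range of the 3 scrambled controls. Over the 30 tested members, 17 lay wholly above and 3 wholly below, against 30.3% and 15.1% of all genes. Members moved in each class: 8 of 19 sterol enzymes rose, 4 of 5 tested fatty acid enzymes rose, and of 6 regulators and transport genes 4 rose and 1 fell. The median log2 fold change was 0.14 for sterol enzymes, 0.37 for fatty acid enzymes and 0.32 for regulators and transport genes. The classes were not tested against each other.

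**Figure D1:**
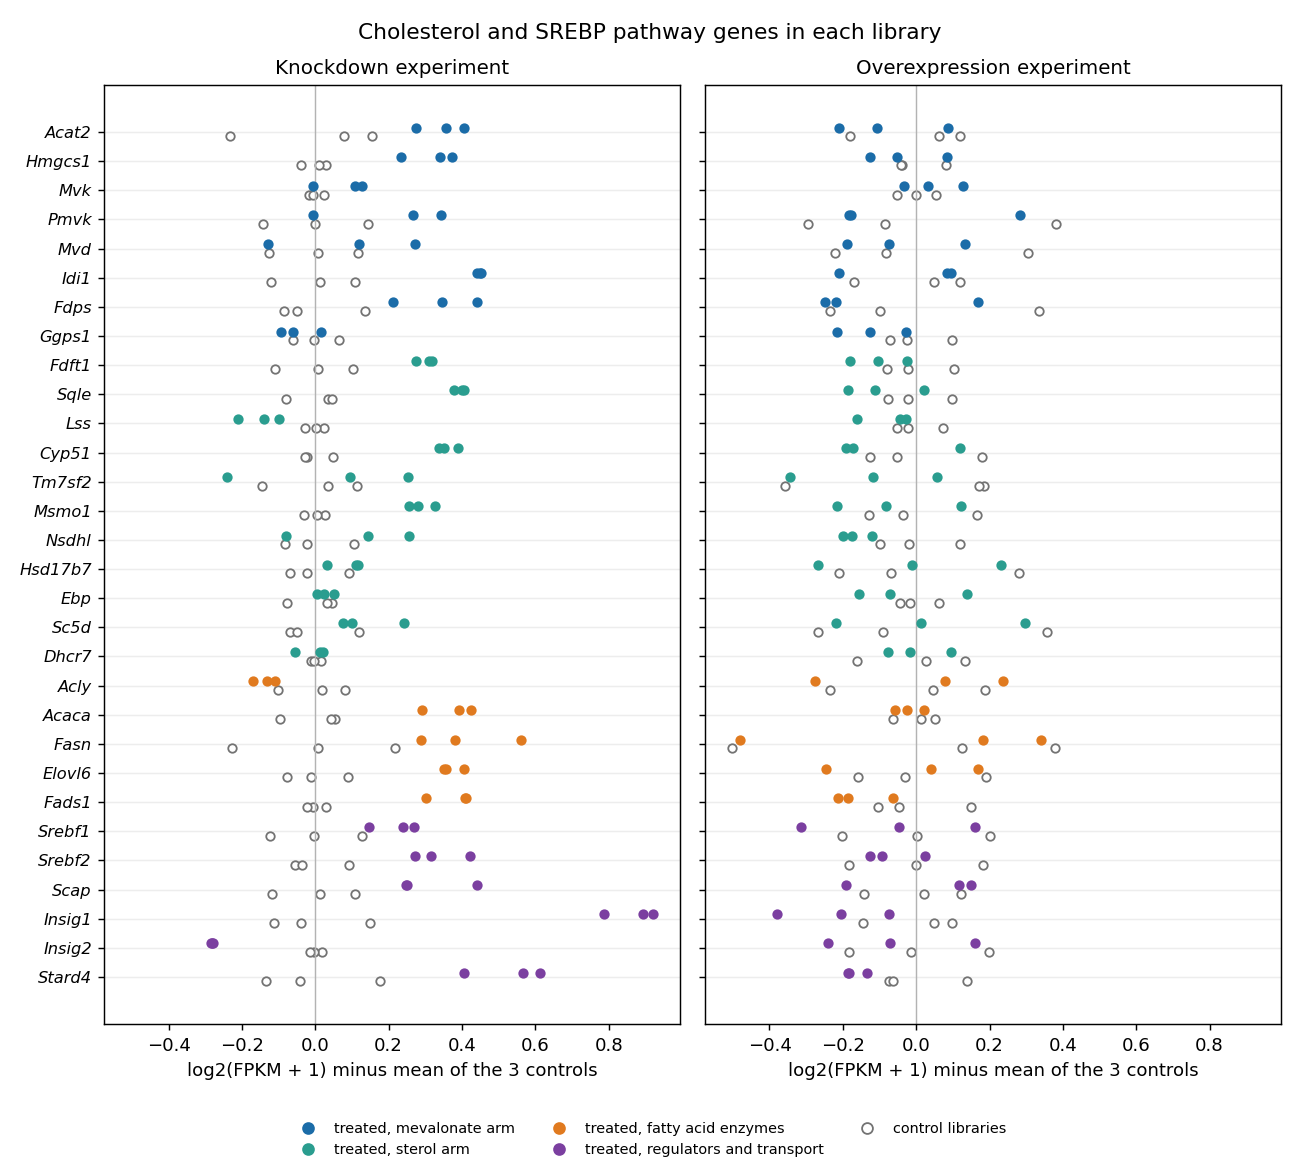
Each row is a pathway gene and each point a library, as log2(FPKM + 1) minus the mean of the 3 controls of its experiment; filled points are Spi1 knockdown (left panel) or Spi1 overexpression (right panel) libraries, coloured by class, and open points are controls. In the left panel 17 genes have all filled points above and 3 have all below the open points, and in the right panel 0 and 2 do.

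The regulators held the largest change. INSIG1 retains SCAP in the endoplasmic reticulum when sterols are high, and its gene is itself an SREBP target. Insig1 (chr5:28071363-28078662, plus strand of GRCm38, with no other annotated gene over its exons) was at 53.3, 48.5 and 52.2 FPKM in knockdown, against 25.5, 26.9 and 30.8 FPKM in scrambled controls. Every knockdown library lay far above every control. The log2 fold change was 0.87 ± 0.0843 (standard error, as for all log2 values below; limma, adjusted p = 0.00193), the largest rise among the 30. It also lay above all 3 empty controls of the other experiment, at 31.2, 26.2 and 30.2 FPKM.

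Insig2 encodes the related retention protein, which in liver is controlled differently from INSIG1, and it went the other way. It was at 25.995, 25.929 and 25.875 FPKM in knockdown, against 32.1, 31.7 and 31.4 FPKM in scrambled controls. Both groups were tight and did not overlap, with a log2 fold change of -0.28 ± 0.0545 (limma, adjusted p = 0.0116). The knockdown libraries did not stand apart from the empty controls, at 24.4, 32.1 and 27.5 FPKM.

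Stard4 encodes a soluble carrier that moves sterol between membranes. It was at 8.32, 7.07 and 8.03 FPKM in knockdown, against 4.91, 4.55 and 5.88 FPKM in scrambled controls, with no overlap. The log2 fold change was 0.53 ± 0.0979 (limma, adjusted p = 0.0101). The empty controls stood at 6.65, 7.86 and 6.71 FPKM, and overlapped the knockdown libraries. Srebf2, the gene of SREBP-2, was at 50.3, 48.9 and 54.2 FPKM in knockdown, against 38.8, 39.2 and 43.0 FPKM in scrambled controls. Its libraries did not overlap either, with a log2 fold change of 0.34 (limma, adjusted p = 0.0157). Scap, the escort protein gene, was at 13.7, 15.8 and 13.7 FPKM in knockdown, against 10.4, 12.3 and 11.5 FPKM in scrambled controls, a log2 fold change of 0.31 (limma, adjusted p = 0.0355). Srebf1, the gene of SREBP-1, was at 32.7, 32.0 and 29.9 FPKM in knockdown, against 24.6, 29.5 and 26.9 FPKM in scrambled controls. Its groups did not overlap, yet its log2 fold change of 0.22 did not pass (limma, adjusted p = 0.0842).

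**Figure D2:**
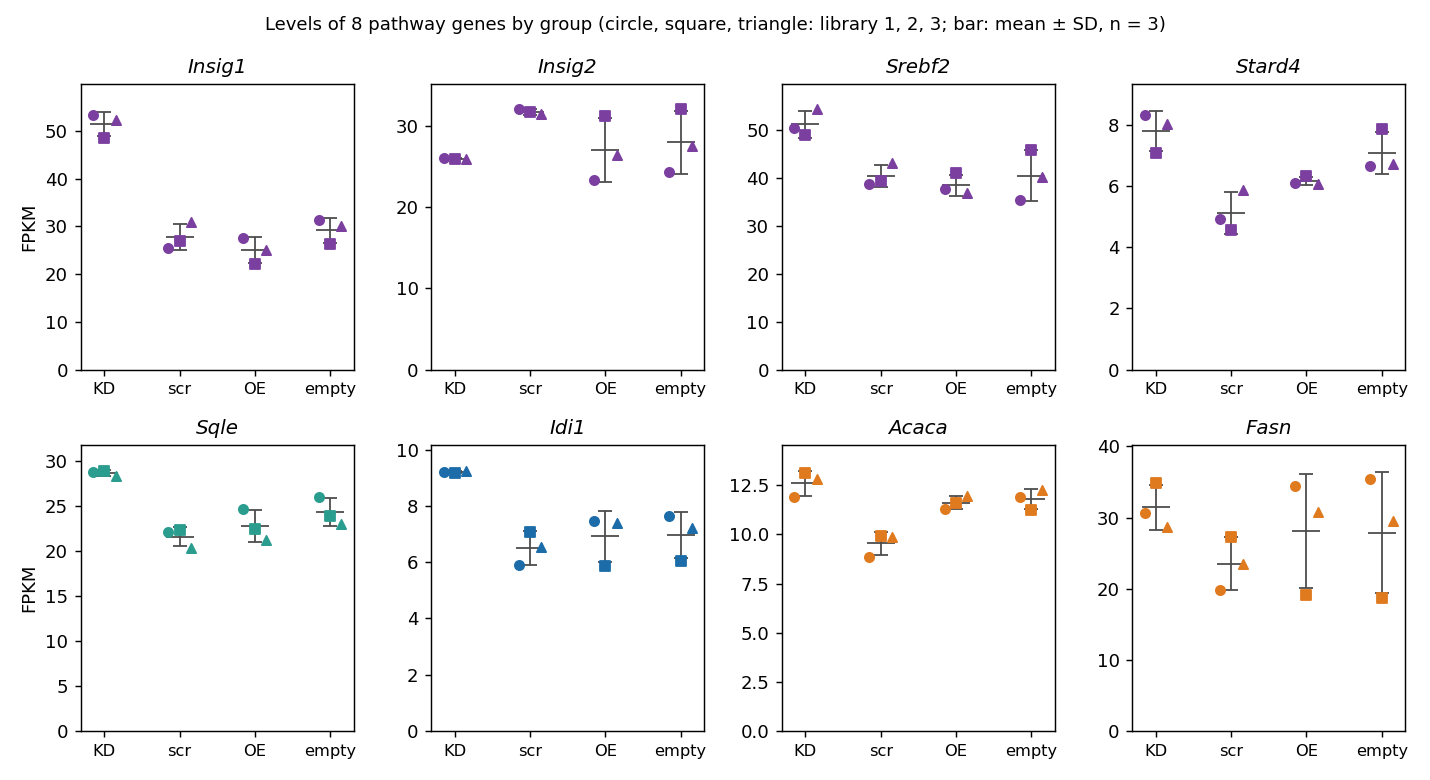
FPKM of 8 pathway genes in Spi1 knockdown (KD), scrambled control (scr), Spi1 overexpression (OE) and empty control libraries; points are libraries 1 to 3 and bars mean ± SD (n = 3). Insig1 stands at 48.5 to 53.3 FPKM in knockdown and at most at 31.2 FPKM in any other library, while Insig2 is lower in knockdown than in scrambled controls but overlaps the empty controls.

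In the mevalonate arm, which runs from acetyl-CoA to the isoprenoid diphosphates, 4 of 8 genes rose. Idi1 encodes the isomerase that makes dimethylallyl diphosphate. It was at 9.21, 9.17 and 9.23 FPKM in knockdown, against 5.89, 7.07 and 6.55 FPKM in scrambled controls. The knockdown libraries were nearly level and clear of every control, with a log2 fold change of 0.45 ± 0.0728 (limma, adjusted p = 0.00675). Hmgcs1, the cytosolic HMG-CoA synthase gene whose window holds the sterol regulatory element match shown above, was at 17.2, 15.5 and 16.8 FPKM in knockdown, against 12.7, 13.3 and 13.2 FPKM in scrambled controls. These did not overlap, and the log2 fold change was 0.32 (limma, adjusted p = 0.0135). Fdps was at 76.8, 65.4 and 71.8 FPKM in knockdown, against 54.4, 53.1 and 61.9 FPKM in scrambled controls, a log2 fold change of 0.33 (limma, adjusted p = 0.0314). Acat2, the cytosolic acetyl-CoA acetyltransferase gene of the first step, was at 15.9, 14.5 and 15.4 FPKM in knockdown, against 9.89, 12.5 and 13.2 FPKM in scrambled controls, a log2 fold change of 0.35 (limma, adjusted p = 0.0492). Both lay above all of their scrambled controls. The kinase genes Mvk and Pmvk, the decarboxylase gene Mvd and the geranylgeranyl diphosphate synthase gene Ggps1 did not pass and had log2 fold changes of 0.08, 0.20, 0.09 and -0.05, with knockdown and scrambled libraries overlapping in each.

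Reads of some of these genes can come from near-identical or overlapping genes. In GENCODE M21, 54.1% of the 100-base windows in the transcripts of Fdps also occur in other genes, Gm43738 and Gm3571, as do 30.6% for Acat2 in Acat3, 17.8% for Idi1 in Gm13502 and Gm35570, and 39.8% for Acaca in Gm5182. The share was 15.7% for Tm7sf2, in Vps51, and at most 2.78% for any other member. How the authors counted such reads is not given in the sources used here, so the values of Fdps, Acat2, Idi1, Acaca and Tm7sf2 are uncertain. The kit does not mark strand. Exons of Hmgcs1, Fdft1 and Scap overlap those of an annotated gene on the opposite strand, over 12.1%, 18.3% and 13.2% of their bases. Idi1, Ggps1, Lss, Cyp51, Elovl6 and Srebf1 have smaller such overlaps, of at most 9.2%.

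In the arm from squalene to cholesterol 4 of 11 genes rose, and the 4 include the first enzymes after farnesyl diphosphate. Sqle encodes squalene epoxidase, a rate-limiting step of the sterol branch. It was at 28.8, 29.0 and 28.4 FPKM in knockdown, against 22.1, 22.3 and 20.4 FPKM in scrambled controls. The groups were far apart for their spread, with a log2 fold change of 0.39 ± 0.0620 (limma, adjusted p = 0.00612). Cyp51, the lanosterol 14-alpha-demethylase gene, was at 11.7, 12.2 and 11.8 FPKM in knockdown, against 8.91, 9.40 and 8.87 FPKM in scrambled controls, a log2 fold change of 0.36 (limma, adjusted p = 0.00667). Msmo1 was at 62.9, 60.9 and 59.8 FPKM in knockdown, against 50.9, 50.1 and 48.8 FPKM in scrambled controls, a log2 fold change of 0.29 (limma, adjusted p = 0.0131). Fdft1, the squalene synthase gene, was at 20.8, 20.7 and 20.1 FPKM in knockdown, against 15.2, 16.5 and 17.8 FPKM in scrambled controls, a log2 fold change of 0.30 (limma, adjusted p = 0.0220). In all 4 the knockdown libraries lay above the scrambled controls.

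Lss, which closes squalene epoxide into lanosterol between the Sqle and Cyp51 steps, differed in sign from both neighbours. It was at 17.1, 15.8 and 16.6 FPKM in knockdown, against 18.8, 18.5 and 18.1 FPKM in scrambled controls, and was below all 6 control libraries of both experiments. Its log2 fold change of -0.15 did not pass (limma, adjusted p = 0.105), but it passed with the replicate number as a block (adjusted p = 0.0472). Tm7sf2, Nsdhl, Hsd17b7, Ebp, Sc5d and Dhcr7, whose enzymes carry out reductions, decarboxylation, isomerisation and desaturation late in the arm, did not pass, with log2 fold changes of -0.01 to 0.14. Their knockdown libraries overlapped the scrambled controls.

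Among the fatty acid enzymes, 4 of the 5 tested genes rose. Acaca encodes acetyl-CoA carboxylase 1, which commits acetyl-CoA to fatty acid synthesis. It was at 11.9, 13.1 and 12.8 FPKM in knockdown, against 8.85, 9.93 and 9.85 FPKM in scrambled controls, without overlap. The log2 fold change was 0.37 ± 0.0710 (limma, adjusted p = 0.0114). Fasn, the fatty acid synthase gene, was at 30.7, 34.9 and 28.7 FPKM in knockdown, against 19.8, 27.3 and 23.5 FPKM in scrambled controls. The lowest knockdown library was close to the highest control, and the log2 fold change was 0.41 (limma, adjusted p = 0.0469). Elovl6, the elongase gene for palmitate, was at 5.19, 5.40 and 5.17 FPKM in knockdown, against 3.79, 3.58 and 4.14 FPKM in scrambled controls, a log2 fold change of 0.37 (limma, adjusted p = 0.00893). Fads1, the delta-5 desaturase gene, was at 52.8, 48.8 and 52.7 FPKM in knockdown, against 39.2, 38.8 and 40.2 FPKM in scrambled controls, a log2 fold change of 0.38 (limma, adjusted p = 0.00681). Both were clear of all scrambled controls. Acly differed from the other 4: it was at 60.2, 61.7 and 62.7 FPKM in knockdown, against 63.2, 71.8 and 68.7 FPKM in scrambled controls. Its groups did not overlap, but the log2 fold change of -0.14 did not pass (limma, adjusted p = 0.173).

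The calls differ in how much they rest on single libraries. Idi1, Sqle, Cyp51, Msmo1, Acaca, Elovl6, Fads1, Insig1, Insig2 and Stard4 passed without any one of the 6 libraries. Acat2 did not pass without scrambled control 1 or 2 (limma, adjusted p = 0.0701 and 0.0696) or without knockdown 1, 2 or 3 (0.124, 0.0846 and 0.127). Fdps did not pass without scrambled control 1 or 2 (0.0806 and 0.0849) or knockdown 1 or 3 (0.0910 and 0.0931), nor Fdft1 without scrambled control 2 (0.0545) or knockdown 1, 2 or 3 (0.0635, 0.0649 and 0.0620). Fasn did not pass without scrambled control 1 or 3 (0.102 and 0.0941) or knockdown 1, 2 or 3 (0.0941, 0.133 and 0.0730), nor Scap without scrambled control 1 or 3 (0.0883 and 0.0774) or knockdown 1, 2 or 3 (0.0612, 0.102 and 0.0724). Hmgcs1 and Srebf2 did not pass without knockdown 3 (0.0530 and 0.0592).

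Scaling also bears on the count. With median-of-ratios scaling the median of all genes moved to 0.00, and 12 members passed as higher and 3 as lower, against 11.1% and 13.0% of all genes. Acat2, Fdps, Fasn and Scap then did not pass (limma, adjusted p = 0.0869, 0.0696, 0.0830 and 0.0740), and Lss and Acly passed as lower. With the replicate number as a block 18 members passed as higher and 2 as lower, against 30.6% and 14.7% of all genes, the additions being Pmvk and Sc5d as higher and Lss as lower (adjusted p = 0.0237, 0.0434 and 0.0472). Without both libraries numbered 2, only Idi1 and Insig1 passed, both as higher (adjusted p = 0.0481 and 0.0374). Of all 11232 genes tested in that setting 449 passed, 247 as higher and 202 as lower.

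Other transcripts moved beside these genes. All 18 markers of cycling cells in G2/M rose in knockdown, with a summed level of 651 to 725 FPKM in knockdown, against 287 to 421 FPKM in scrambled controls, and of 493 to 698 FPKM in overexpression, against 559 to 761 FPKM in empty controls. Of the 12 macrophage and microglia markers 8 fell and 1 rose in knockdown. The part of either in the values of the pathway genes was not tested.

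The empty controls of the other experiment give another baseline of cells in which Spi1 was not targeted. They are described here without a test because the experiments differ in construct. These baselines also differed in Spi1 itself, with scrambled above empty control by a log2 difference of 0.30 and no overlap. The part of this Spi1 difference in the values below was not tested. The knockdown libraries lay above all 6 control libraries in 11 members and below all 6 in 1, Lss, against 7.98% and 6.75% of all genes. Of the 17 members called in knockdown, 10 lay above all 6: Acat2, Hmgcs1, Idi1, Fdft1, Sqle, Cyp51, Msmo1, Srebf2, Scap and Insig1. The 4 called fatty acid enzymes, and with them Fdps, Insig2 and Stard4, overlapped the empty controls. The median over the 30 of knockdown minus empty control was 0.19 on the log2 scale, against 0.03 over all genes, and that of scrambled minus empty control was -0.04, the same as over all genes. Among the 30 tested members the gap between the controls was widest for Stard4, with scrambled below empty control by a log2 difference of -0.40. Next came Acaca at -0.28, Fads1 at -0.23 and Fasn at -0.20. For these 4 genes the knockdown minus empty control differences were 0.13, 0.09, 0.14 and 0.21. For Insig1, Srebf2, Cyp51, Msmo1 and Hmgcs1 the scrambled and empty controls differed by at most 0.07 in size, and knockdown minus empty control was 0.80, 0.34, 0.34, 0.35 and 0.33.

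Overexpression was compared with its empty control to ask what higher Spi1 does to the same genes. None of the 30 tested members passed, and 0% of the 11217 genes tested did (limma, Benjamini-Hochberg), Spi1 itself included with a log2 fold change of 0.81 (adjusted p = 0.9999). Without a block, 0 members and 122 genes, 1.09% of those tested, had an unadjusted p under 0.05. With the replicate number as a block 4 members did, Insig1, Nsdhl, Fads1 and Stard4, all of them lower. The share of all genes at that blocked threshold was not counted. With limma-voom on reads recovered from the values 0 members and 0 genes passed. With the replicate number as a block 0 members and 13 genes, 0.116%, passed, and Spi1 was among the 13 (limma, adjusted p = 0.0357). With all libraries, 24 of 30 members had a negative log2 fold change, against 57.7% of all genes, with a median of -0.05, against -0.01 over all genes. Without both libraries numbered 2, 18 of 30 were negative, against 53.1% of all genes. Between libraries of the same number, 12 members were lower in overexpression in all 3 pairs and 0 were higher in all 3, against 23.8% and 14.0% of all genes. The overexpression libraries lay below all 3 empty controls in 2 members, Nsdhl and Stard4, and above them in 0, against 2.40% and 1.66% of all genes.

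Insig1 had the largest difference here too in size. It was at 27.6, 22.2 and 25.1 FPKM in overexpression, against 31.2, 26.2 and 30.2 FPKM in empty controls. It was lower in each same-numbered pair, though the groups overlapped, and its log2 fold change of -0.22 ± 0.116 did not pass (limma, adjusted p = 0.9999). With the replicate number as a block the standard error was 0.0402, and Insig1 did not pass either (limma, adjusted p = 0.148). Stard4 was at 6.09, 6.33 and 6.08 FPKM in overexpression, against 6.65, 7.86 and 6.71 FPKM in empty controls, a log2 fold change of -0.17 that did not pass (limma, adjusted p = 0.9999). Nsdhl, a sterol C4 decarboxylase gene, was at 7.73, 8.21 and 7.88 FPKM in overexpression, against 8.88, 9.88 and 8.36 FPKM in empty controls. Its log2 fold change was -0.17 and did not pass (limma, adjusted p = 0.9999). By class the median log2 fold changes were -0.06 for the 19 sterol enzymes, -0.01 for the 5 fatty acid enzymes and -0.07 for the 6 regulators and transport genes. Without a block, standard errors were larger than in the knockdown experiment for many genes, up to 0.294 for Fasn. With the replicate number as a block that of Fasn was 0.0412 in overexpression and 0.0755 in knockdown.

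The overexpression and empty control libraries numbered 2 stood apart from the rest together. Fasn was at 34.4, 19.1 and 30.8 FPKM in overexpression, against 35.4, 18.7 and 29.5 FPKM in empty controls. Library 2 was the low one in both groups, by -0.75 on the log2 scale. Pmvk was at 15.6, 21.99 and 15.7 FPKM in overexpression, against 14.4, 23.6 and 16.8 FPKM in empty controls, with library 2 high in both groups by 0.52. Fdps was at 53.2, 69.9 and 52.1 FPKM in overexpression, against 52.6, 78.6 and 58.0 FPKM in empty controls, with library 2 higher by 0.45. In all, both libraries numbered 2 lay above the other 4 in 6 members, Mvk, Pmvk, Mvd, Fdps, Srebf2 and Insig2, against 19.6% of all genes. They lay below the other 4 in 9 members, Acat2, Idi1, Hsd17b7, Sc5d, Acly, Fasn, Elovl6, Srebf1 and Scap, against 41.3% of all genes. In the knockdown experiment the libraries numbered 2 lay above the other 4 in 2 members, Ebp and Sc5d, and below in 4, Pmvk, Mvd, Tm7sf2 and Nsdhl, against 8.74% and 8.03% of all genes. What the shared number stands for is not given in the sources used here.

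**Figure D3:**
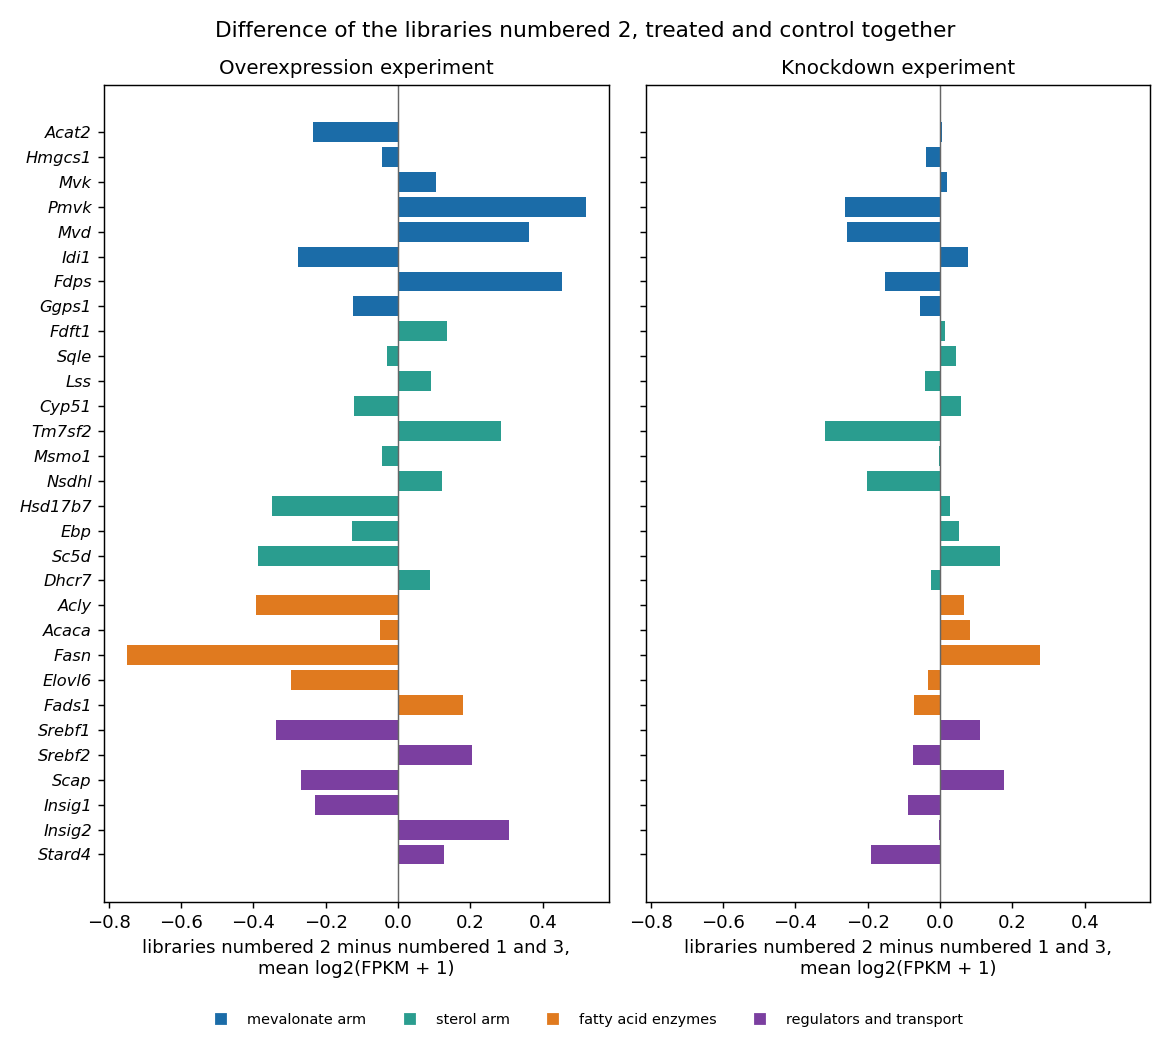
For each pathway gene, the bar is the mean log2(FPKM + 1) of the treated and control libraries numbered 2 minus that of the libraries numbered 1 and 3, in the overexpression experiment (left) and the knockdown experiment (right), coloured by class. In the overexpression experiment Fasn reaches -0.75 and Pmvk 0.52, so genes of the same pathway lie on both sides of 0.

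The difference between the effects, overexpression effect minus knockdown effect, was tested over all 12 libraries as an interaction. It passed for 5 of the 30 tested members, all of them lower, against 2.94% of 11224 genes lower and 4.84% in either direction. Because the experiments share no library, each effect has its own controls. For Insig1 the difference was -1.09 ± 0.145 (limma, adjusted p = 0.00386), from -0.22 in overexpression and 0.87 in knockdown. For Stard4 it was -0.70 ± 0.135 (limma, adjusted p = 0.0227), from -0.17 in overexpression and 0.53 in knockdown. For Fads1 it was -0.53 (adjusted p = 0.0261), for Sqle -0.49 (adjusted p = 0.0289) and for Acaca -0.39 (adjusted p = 0.0472). By class these are 1 of 19 sterol enzymes, 2 of 5 fatty acid enzymes and 2 of 6 regulators and transport genes. For the other 25 the difference was not detected in the main fit. Of them, Fdft1 passed with no filter and Srebf2 without empty control 1. With the replicate number as a block 15 of them passed. Over the 30 the median difference was -0.32, against -0.09 over all genes.

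**Figure D4:**
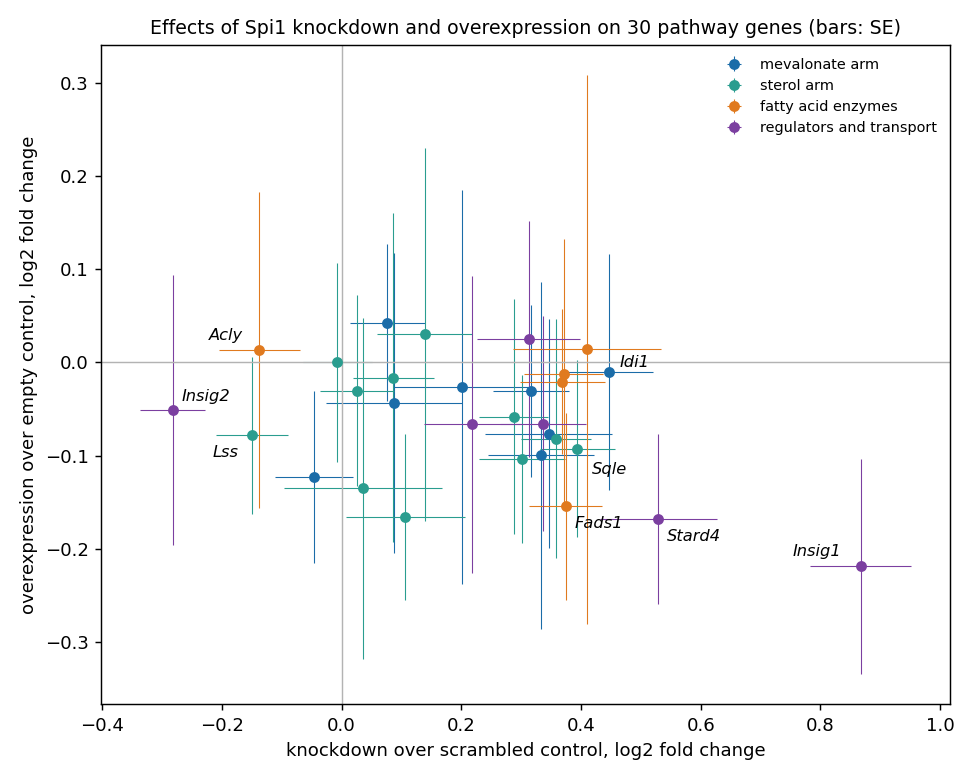
Each point is a pathway gene, with the log2 fold change of Spi1 knockdown over scrambled control on the x axis and of Spi1 overexpression over empty control on the y axis; bars are standard errors and colours are classes. Insig1 lies farthest right at 0.87 and lowest at -0.22, most genes lie right of 0 and below 0, and Insig2 lies left of 0 at -0.28.

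Insig1 kept this call without any one of the 12 libraries, with adjusted p from 0.00578 to 0.0171, and without all 4 libraries numbered 2 (limma, adjusted p = 0.0384). The other 4 did not keep it throughout. Stard4 did not pass without scrambled control 1 or 2 (0.0515 and 0.0648), knockdown 1 or 3 (0.0574 and 0.0676) or empty control 3 (0.0553). Fads1 did not pass without scrambled control 1 or 2 (0.0618 and 0.0742), knockdown 1, 2 or 3 (0.0638, 0.0506 and 0.0769), empty control 3 (0.0669) or overexpression 1 (0.0614). Sqle did not pass without scrambled control 1, 2 or 3 (0.0604, 0.0651 and 0.0580), knockdown 1, 2 or 3 (0.0661, 0.0745 and 0.0757), empty control 3 (0.0654) or overexpression 2 or 3 (0.0545 and 0.0550). Acaca passed only without empty control 2 (0.0492), and without any other single library its adjusted p was 0.0614 to 0.128. With the replicate number as a block 19 members passed as lower and 1, Insig2, as higher, against 28.6% and 12.9% of all genes. The additions were Acat2, Hmgcs1, Pmvk, Idi1, Fdps, Fdft1, Cyp51, Msmo1, Nsdhl, Fasn, Elovl6, Srebf1, Srebf2, Scap and Insig2. Their blocked adjusted p was 0.00143 to 0.0474 (limma). With median-of-ratios scaling only Insig1 and Stard4 passed (adjusted p = 0.00180 and 0.0387), against 2.26% of all genes lower.

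Of 36 other genes of the pathway, such as proteases, desaturases, degradation factors and sterol exporters, 35 were found and 33 tested. In knockdown 3 rose and 2 fell, against 17.4% higher and 8.86% lower over all genes, and the median log2 fold change was 0.03, against 0.07 over all genes. Mbtps1, which encodes the site-1 protease that makes the first cut in SREBP, averaged 40.6 ± 1.11 FPKM in knockdown and 26.9 ± 1.52 FPKM in scrambled controls (SD, n = 3 each), and its log2 fold change was 0.58 (limma, adjusted p = 0.00286). Erlin2, which encodes a membrane protein that takes part in degradation in the endoplasmic reticulum, averaged 8.54 ± 0.297 FPKM in knockdown and 13.4 ± 0.275 FPKM in scrambled controls, a log2 fold change of -0.59 (limma, adjusted p = 0.00193). Lbr, a lamin B receptor with sterol C14-reductase activity, averaged 21.7 ± 0.716 FPKM in knockdown and 14.5 ± 2.09 FPKM in scrambled controls, a log2 fold change of 0.56 (limma, adjusted p = 0.0101). Soat1, which encodes the enzyme that esterifies cholesterol for storage, averaged 108.8 ± 6.29 FPKM in knockdown and 132.9 ± 5.98 FPKM in scrambled controls, a log2 fold change of -0.29 (limma, adjusted p = 0.0246), which did not pass without scrambled control 1 or 2 (0.0630 and 0.0690) or knockdown 1 or 3 (0.0624 and 0.0862). The fifth called gene, Tmem97, a sterol-responsive membrane protein gene named after its values were seen, averaged 48.6 ± 3.19 FPKM in knockdown and 34.9 ± 5.41 FPKM in scrambled controls, a log2 fold change of 0.48 (limma, adjusted p = 0.0252) that did not pass without knockdown 1, 2 or 3 (0.0504, 0.0779 and 0.0682). In overexpression 0 of the 33 passed, and the difference between effects passed for 1, Mbtps1, at -0.68 (limma, adjusted p = 0.0162), though not without scrambled control 2 or knockdown 3 (0.0521 and 0.0542). Over all genes that difference passed for 4.84%, and for 2.94% as lower. Mbtps2, the gene of the site-2 protease that makes the second cut, did not pass in knockdown, with a log2 fold change of 0.04 (limma, adjusted p = 0.720).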

How the data were processed

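The 12 polyA libraries came from the TruSeq v2 kit (strand is not marked) and were sequenced as single 100-base reads, per the labels' protocols. The authors deposited 2 tables of FPKM values, 1 per experiment. The unit is not stated and was read from the values, which are whole multiples of a step per gene and library. Tools listed in the submitters' processing notes are STAR 2.5.2a, featureCounts, DESeq2 1.14, CASAVA 1.8.2 and bcl2fastq, with build mm10. Which annotation, gene lengths and strand setting were used is not given in the sources used here. Whole reads were recovered for 17838 of 17838 genes above 0 (within 0.02 reads, 1518 by a search over lengths), and 4 entries with repeated symbols were left out.

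Groups came from the treatment labels and numbers from the titles. For each experiment, log2(FPKM + 1) was fitted in limma 3.58.1 (R 4.3.3), keeping genes that averaged 1 FPKM or more over its 6 libraries. The difference between effects was fitted as an interaction over all 12 libraries. Adjustment was by Benjamini-Hochberg across every gene tested, and calls needed an adjusted p under 0.05. A fold change on this scale understates the change of low genes. The fit was tested on simulated data with independent libraries, which lack the shared deviations of same-numbered libraries described below. Count models were not run because the unit is FPKM, and limma-voom on the recovered reads was added as an alternative. The other alternatives were pseudocounts of 0.1 and 0.5, no filter or a minimum of 5 FPKM, median-of-ratios scaling, trend and robust options, a replicate block, and leaving out libraries.

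Same-numbered treated and control libraries deviated together from their group means, with correlations across genes of 0.397, 0.540 and 0.345 for knockdown pairs 1 to 3, and 0.791, 0.845 and 0.513 for overexpression pairs 1 to 3. As all exceed 0.1, the numbers were taken as pairs, from the data and not from the labels. The main calls were made without a block, and blocked counts and some blocked values are given beside them.

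The members and the other gene lists were chosen with earlier results of these data known. All 31 members are named, and of the other pathway genes the called ones with the smallest p, up to 4. Gene positions and shared or overlapping transcript sequence come from GENCODE M21 on GRCm38 (mm10), and promoters from RefSeq on GRCm38.p6.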

Additional observations from a re-analysis of the deposited data

Results flagged for a closer look

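The difference between the overexpression effect and the knockdown effect passed its own test for 5 members (limma interaction over 12 libraries, Benjamini-Hochberg adjusted p). It was -1.09 for Insig1 (adjusted p = 0.00386), -0.70 for Stard4 (0.0227), -0.53 for Fads1 (0.0261), -0.49 for Sqle (0.0289) and -0.39 for Acaca (0.0472), and among the other pathway genes it was -0.68 for Mbtps1 (0.0162). In all 6 the knockdown effect was positive and passed its own test, and the overexpression effect was negative and did not pass. For Stard4, Fads1, Acaca and Sqle the scrambled controls lay below the empty controls, by log2 differences of -0.40, -0.23, -0.28 and -0.16. For Insig1 that difference was -0.07. Mbtps1 averaged 26.9 ± 1.52 FPKM in scrambled controls and 32.2 ± 2.45 FPKM in empty controls, without overlap. The part of the gap between the controls in these differences was not tested.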

How the results depend on the processing

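In the knockdown comparison 17 members passed, and no named gene that was called under any setting changed sign. Under 2 other pseudocounts, no filter, a minimum of 5 FPKM, median-of-ratios scaling, trend and robust options, a replicate block and limma-voom the count was 13 to 20. Leaving out single libraries gave 10 to 15 members and 1458 to 2206 genes, against 2945 genes with all libraries. Without both libraries numbered 2 it gave 2 members and 449 genes, with 2 libraries left in each group. With the replicate block 5081 genes passed. In the overexpression comparison 0 members passed under every setting, and 0 genes except 13 with the block. For the difference between effects 5 members and 543 genes passed. The counts were 6 members and 618 genes with no filter, and 2 members with median-of-ratios scaling. They were 20 members and 4658 genes with the block, and 1 member and 80 genes without the 4 libraries numbered 2. Without single libraries they were 1 to 5 members and 109 to 575 genes. The causes of these changes were not tested. Insig1 kept its calls under all of these settings. Depth limits Tm7sf2 most, with 71 to 152 reads per library.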
